A study of Rattus norvegicus with 40 samples.

Results

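Cytokine-treated INS-1E cells at 60 and 72 h were compared with the same treatment at 24 and 36 h, to see which responses to IL-1 and IFN-γ had declined by the third day and which were still present. The members are 8 arrays of a series of 40, chosen by their titles: cytokine condition, 2 replicate numbers at each of 24, 36, 60 and 72 h. INS-1E is an insulin-secreting line derived from a rat insulinoma, here used in place of pancreatic beta cells. The cytokine cultures held IL-1 (recombinant human, 10 units/ml) together with IFN-γ (recombinant murine, 100 units/ml). Beside them stand 4 control arrays without cytokines, 1 at each of the same times and all numbered replicate 1, so that the comparison with control cultures rests on 1 replicate number. Expression values are log2 signals of 1 probe set per gene for 16587 genes, called levels below. The earlier window is 24 and 36 h (4 cytokine arrays, 2 control arrays) and the later window 60 and 72 h (4 and 2). A treatment characteristic of these cytokine arrays names IFN-beta where the series title and the treatment protocol name IL-1; IL-1 is used here. Islets are mentioned in the extraction protocol, whereas every array is labelled as the cell line. The sources used here do not say whether medium or cytokines were renewed during culture.

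IFN-γ acts through the kinases JAK1 and JAK2, activates genes with GAS elements and induces IRF1. IRF1 and complexes with STAT2 bind interferon-stimulated response elements (ISRE). IL-1 acts through NF-κB, which induces chemokines, adhesion molecules and its own inhibitor. In beta cells the pair of cytokines is known to induce antiviral proteins, antigen presentation, chemokines and the inducible nitric oxide synthase, to lower insulin and other beta cell products, and to raise endoplasmic reticulum (ER) stress signals. Brakes such as SOCS proteins, USP18 and IκBα limit the signals.

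Promoters of genes with different late courses are shown first, because they were searched for elements of the kinds through which both cytokines act. They were chosen by size: the genes raised at 6 to 12 h with the largest called fall, and those with the largest remaining difference from control among genes that moved by under 0.3 (log2). Mx2, Samd9l, Casp4 and Ifitm1 came before some of these in that order, had no promoter entry and are named only. Mx1 (change -2.31) and RT1-CE5 (remaining difference 1.99) also came before the printed genes of their groups. Both had an entry but no match to the elements searched, and their sequences are not printed. The printed promoters are therefore not the full choice by size. Each stretch runs from 250 bases before to 50 bases after a RefSeq transcript start in the rat assembly GRCr8, 5′ to 3′ on the gene's strand, in lower case with motif matches on either strand in capitals. Gbp5 lies at chr2:233910749-233911048 on the plus strand and Rsad2 at chr6:48788071-48788370 on the minus strand, and both fell. Cxcl16 at chr10:55669901-55670200 on the minus strand and RT1-A1 at chr20:4906959-4907258 on the plus strand kept their difference.
Gbp5: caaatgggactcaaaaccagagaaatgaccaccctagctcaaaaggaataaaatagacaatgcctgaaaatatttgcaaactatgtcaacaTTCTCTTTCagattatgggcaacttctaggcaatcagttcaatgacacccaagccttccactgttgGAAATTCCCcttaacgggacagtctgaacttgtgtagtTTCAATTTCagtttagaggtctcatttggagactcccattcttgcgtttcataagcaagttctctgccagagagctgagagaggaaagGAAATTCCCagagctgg
Rsad2: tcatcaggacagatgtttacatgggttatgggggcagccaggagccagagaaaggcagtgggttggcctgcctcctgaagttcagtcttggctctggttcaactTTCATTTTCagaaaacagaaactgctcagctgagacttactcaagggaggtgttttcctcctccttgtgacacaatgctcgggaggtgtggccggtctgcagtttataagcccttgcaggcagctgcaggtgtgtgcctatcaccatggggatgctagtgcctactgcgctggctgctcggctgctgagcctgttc
Cxcl16: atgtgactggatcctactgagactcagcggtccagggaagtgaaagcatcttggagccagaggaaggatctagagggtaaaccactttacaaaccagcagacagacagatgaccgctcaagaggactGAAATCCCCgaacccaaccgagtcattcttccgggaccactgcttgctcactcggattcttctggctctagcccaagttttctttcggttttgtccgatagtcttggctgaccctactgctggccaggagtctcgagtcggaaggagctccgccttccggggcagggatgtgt
RT1-A1: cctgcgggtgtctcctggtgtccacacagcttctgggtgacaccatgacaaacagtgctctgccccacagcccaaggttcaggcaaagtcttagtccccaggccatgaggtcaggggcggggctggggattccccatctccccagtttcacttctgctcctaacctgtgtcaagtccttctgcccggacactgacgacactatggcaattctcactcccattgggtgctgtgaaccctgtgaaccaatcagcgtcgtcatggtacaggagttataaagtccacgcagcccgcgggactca
The capitals in Gbp5 are 2 matches to the ISRE core GAAANNGAA and 2 to the NF-κB motif GGGNNTTTC, that in Rsad2 is 1 ISRE core, and that in Cxcl16 is 1 NF-κB motif. RT1-A1 held no match, and neither did Mx1, which fell, or RT1-CE5, which kept its difference. Matches of different motifs can share bases, and a match is a description and not a site. Only exact patterns were searched, so variant forms of an element were not counted and a promoter without a match may still hold one. The shares below have the same limit. Among all 27457 promoters of the table, 9.5% held an ISRE core, 8.68% a GAS motif (TTCNNNGAA), 4.52% the NF-κB motif and 3.82% a C/EBP-ATF motif (TGATGNAA). Of the 46 genes raised at 6 to 12 h that later fell, 30 had an entry, and 15 of these (50%) held an ISRE core, 5 a GAS motif and 4 the NF-κB motif. Of the 177 raised genes not called lower, 144 had an entry, and 39 (27.1%) held an ISRE core, 16 a GAS motif and 18 the NF-κB motif. Of the 61 of these raised genes that moved by under 0.3, 49 had an entry and 3 (6.12%) held an ISRE core. The C/EBP-ATF motif was in 1 promoter of each of these 3 groups. These groups were made from the values compared here, so the shares are given without a test.

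The arrays were alike in scale, and their marker content differed in part. Array medians of the whole series lay between 6.54 and 6.62, and pairs of the 8 arrays correlated across probe sets at 0.9841 to 0.9951. Of the beta cell markers, 6 of 8 were measured, among them Ins1 at a mean level of 14.16, Ins2 at 12.98 and Slc2a2, the glucose transporter, at 12.61. The lowest was Nkx6-1 at 7.53. Their summed level was 14.92 to 15.27 on the earlier and 15.16 to 15.24 on the later cytokine arrays. On the control arrays it was 15.34 to 15.47 and 15.54 to 15.57, above every cytokine array. The 20 leukocyte markers had mean levels between 3.37 and 6.15, and 0 of 20 changed between the windows. Their summed level was 9.06 to 9.25 on the cytokine arrays of the earlier window, 9.05 to 9.24 on those of the later window, and 9.25 to 9.26 and 9.10 to 9.22 on the control arrays. Of 24 endothelial, stromal, acinar and duct markers, 1 rose, the protease precursor Ctrb1 (0.43, SE 0.09, limma adjusted p = 0.0254; control change 0.58; at most 0.20 without 24 h replicate 1, 36 h replicate 1, 60 h replicate 2 or 72 h replicate 2). Their summed level was 11.52 to 11.69 in the earlier and 11.71 to 11.79 in the later cytokine window, which did not overlap. On the control arrays it was 11.84 to 11.91 and 11.97 to 12.04. Thy1, the brightest of the 24 at a mean level of 10.84, weighs most in this sum. Of the 24 markers, 20 lay below the median level of all genes. The 4 markers of other islet cells, led by Gcg, summed to 8.01 to 8.32 and 7.82 to 8.05 on the cytokine arrays and to 9.66 to 9.84 and 9.34 to 9.57 on the control arrays. The part of these markers in the results was not tested. In RNA of a whole culture, fewer responding cells and less RNA per cell cannot be told apart. Experiments were done on 2 occasions according to the series' design text, but no label ties a replicate number to an occasion or names separate cultures, so part of the spread behind the p-values may be technical.

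Between the earlier and the later window, 104 genes rose (0.627% of the genes tested) and 106 fell (0.639%) in cytokine cultures, in limma with Benjamini-Hochberg adjustment over 16587 genes at 0.05 (210 in all, 1.27%). At least 2-fold changes were fewer and mostly downward, with 4 genes higher (0.0241%) and 28 lower (0.169%). Control cultures showed 0 called genes between the same times (0%, 2 arrays against 2, 1034 genes at an unadjusted p under 0.05), and the median standard error was 0.158 there against 0.112 in the cytokine arm. All 210 called genes moved the same way in replicate 1 and in replicate 2, which is partly set by the choice, because the same arrays made the calls. Of the 106 that fell, 65 had been raised by cytokines at 6 to 12 h (4.94% of all genes were), 73 were higher than control in the earlier window (2.91% of all genes were) and 27 still were in the later window (1.26% of all genes were). Of the 104 that rose, 40 had been lowered at 6 to 12 h (4.11% of all genes were) and 21 were below control in the earlier window (2.27% of all genes were). The earlier differences from control use the same 4 cytokine arrays that made these genes rise or fall, so those counts are partly set by the choice of genes. The median control change was -0.03 for the genes that fell and 0.05 for those that rose.

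Same-numbered replicates deviated together, and with the replicate number as a block 278 genes rose and 225 fell, including all 104 and 106 above; control cultures then gave 8 higher and 8 lower. Single arrays carried much of the count. The numbers higher and lower were 14 and 21 without the 24 h replicate 1 cytokine array, 46 and 63 without 24 h replicate 2, and 7 and 14 without 36 h replicate 1. They were 8 and 17 without 60 h replicate 2 and 10 and 19 without 72 h replicate 2, but 240 and 244 without 72 h replicate 1. Of 60 named genes called in the cytokine change, 13 kept their call whichever array of the windows was left out: the falling Cd69, Cxcl1, Cxcl9, Cxcl11, Ifi44, Rtp4, Herc6, Trib3 and Eprs1, and the rising Crabp1, S100a5, Scg5 and Vgf.

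**Figure D1:**
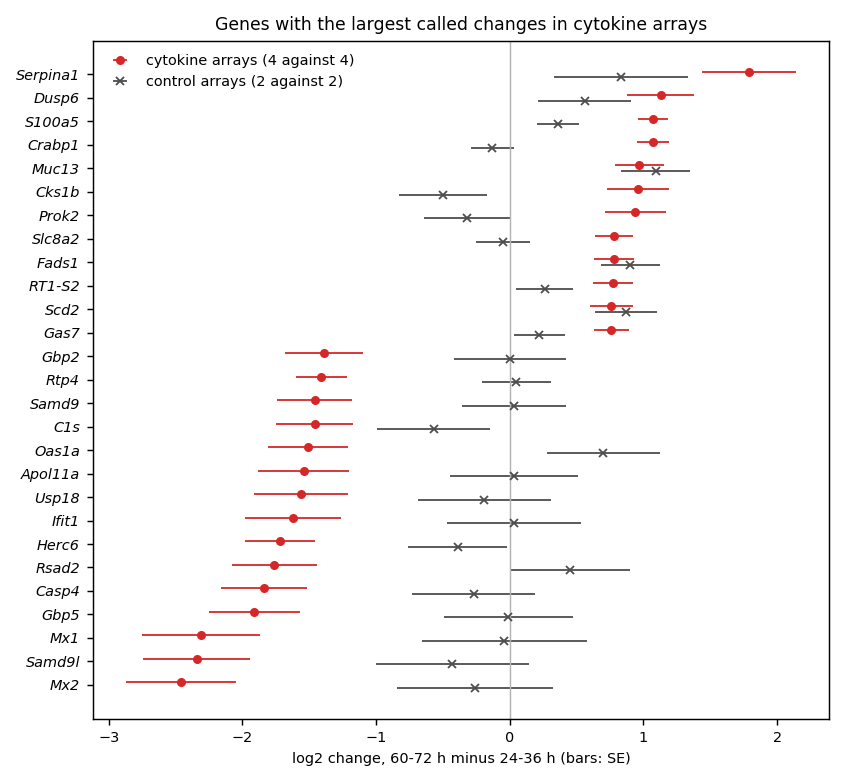
Log2 change from 24 and 36 h to 60 and 72 h of the genes with the largest called changes, in cytokine arrays (red, 4 against 4) and control arrays (grey crosses, 2 against 2), with bars of 1 standard error. The falls reach -2.46 (Mx2) and the rises 1.79 (Serpina1); in control arrays Muc13, Fads1 and Scd2 changed by 1.09, 0.90 and 0.87, none of them called.

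The difference between the cytokine and the control change was itself called for 5 genes (0.0301% of the genes tested; 1261 at an unadjusted p under 0.05), each with an adjusted p of 0.033. The chemokine gene Cxcl1 (-1.57, SE 0.26), the interferon-induced gene Ifi44 (-1.64, SE 0.27), the lymphocyte activation antigen Cd69 (-1.29, SE 0.22) and Ddit3, the gene of the stress factor CHOP (-1.47, SE 0.25), fell against control. The retinoic acid binding protein Crabp1 (1.20, SE 0.20) rose against control. Leaving out 1 array of the windows at a time ended most of these calls. The number called was 0 without the control array at 24, 60 or 72 h, without either 24 h cytokine array, and without 36 h replicate 1, 60 h replicate 2 or 72 h replicate 2. It was 1 without the control array at 36 h or the 60 h replicate 1 cytokine array and 2 without 36 h replicate 2, and was 5 without 72 h replicate 1, when Cxcl1 and Ddit3 were not among them. The 5 genes kept their signs in all 12 fits. With the replicate block 12 genes were called, 6 in each direction, including all 5.

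Genes raised by cytokines at 6 to 12 h (223 genes, called and at least 2-fold, 1.34% of those tested) were followed through the later times, because the arrays that chose them are not among those compared. Of the 223, 46 fell between the windows (20.6%, against 0.639% of all genes) and 0 rose. The direction was shared more widely than the calls: 211 were lower, 202 of them in both replicates, with a median change of -0.46 beside 0.01 in control arrays and 0.01 over all genes. Their median excess over control went from 1.41 at 24 h to 1.09 at 36 h, 0.93 at 48 h, 0.83 at 60 h and 0.73 at 72 h. This median was lower at each later time, and the step from 24 to 36 h was the largest of the 4. In the later window 118 of the 223 were still called higher than control (1.26% of all genes were), 74 of them at least 2-fold (0.555% of all genes were), whereas 194 had been in the earlier window (2.91% of all genes).

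How much remained differed widely between genes. For the 150 raised genes with an earlier excess of at least 1 (log2), the later excess divided by the earlier on the log2 scale, called the retained share, had a median of 63.9% with quartiles of 47.7% and 77.8%. It was under 25% for 9 genes and over 75% for 46. The earlier excess both admits a gene here and is the divisor. Genes that read high in the earlier window by noise can therefore lower the share. The number of raised genes that fell was 94 with the replicate block (90 of the same 223 genes), 10, 8, 9 and 9 without the 24 h replicate 1, 36 h replicate 1, 60 h replicate 2 and 72 h replicate 2 cytokine array, and 92 without 72 h replicate 1. The median change, in contrast, stayed between -0.55 and -0.36, with 207 to 213 genes lower, whichever array was left out, and was -0.31 without both 24 h arrays. The number still higher than control was 60 and 57 without the control array at 60 h or 72 h, and 147 with the block. Of 8 genes lowered at least 2-fold at 6 to 12 h (0.0482% of those tested), 0 were called as moving back, though 7 had a positive change (median 0.45). Of 74 genes at least 2-fold above control at 48 h (0.446% of those tested), a time that lies between the windows, 18 fell, 2 rose and 73 were above control late. Those that rose were S100a5 and, named after its value was seen, the glycosyltransferase gene Gcnt2 (0.54).

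**Figure D2:**
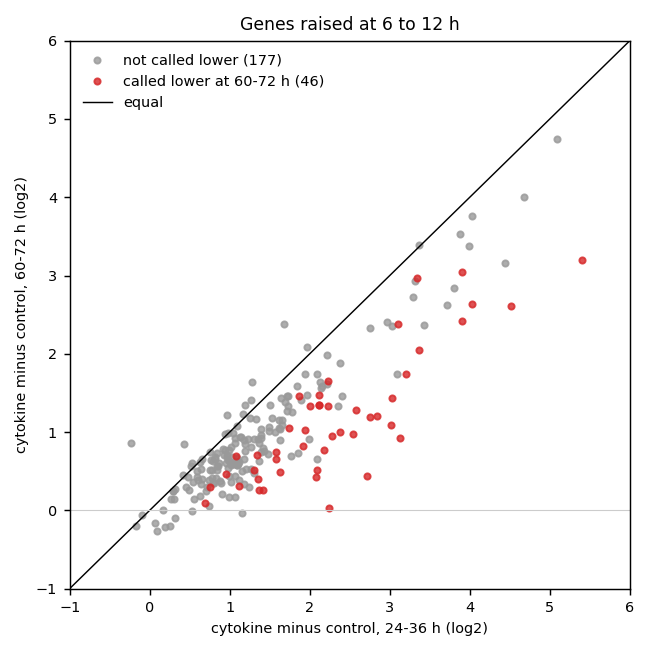
Each point is 1 of the 223 genes raised at 6 to 12 h, with its cytokine minus control difference in the earlier window on the x axis and in the later window on the y axis (log2). Of these genes 207 lie below the line of equality, and the 46 called lower (red) lie below it throughout. The place of the red points is partly set by the choice, because both differences hold the cytokine arrays that made the calls.

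**Figure D3:**
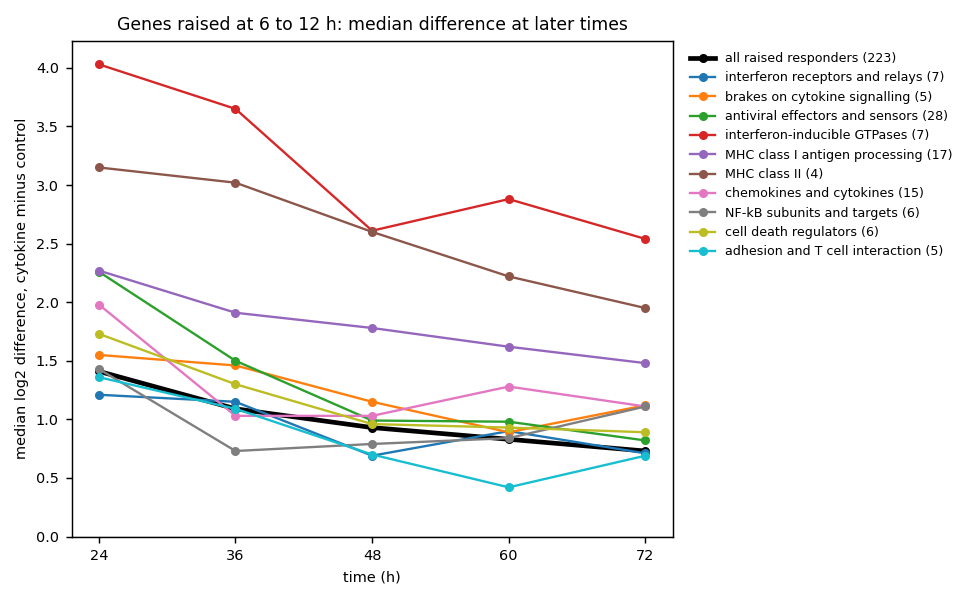
Median cytokine minus control difference (log2) at each time from 24 to 72 h for raised genes of each list, with the number of genes in brackets. Antiviral genes went from 2.26 to 0.82, while antigen-processing genes went from 2.27 to 1.48.

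Antiviral effectors and sensors held the largest block of falls. Of 41 measured members 14 fell (0.639% of all genes did) and 0 rose, with a median change of -0.54 beside -0.04 in control arrays. With the block 20 fell. For every list in this text, 0.639% of all genes fell and 0.627% rose, and 1.26% were above and 0.663% below control late. With the block 278 of all 16587 genes rose and 225 fell, and 332 were above and 237 below control late. Mx2, a dynamin-like GTPase that restricts viruses, read 11.29 and 10.60 at 24 h, 10.50 and 9.14 at 36 h, 8.94 and 7.54 at 60 h and 8.52 and 6.68 at 72 h in replicates 1 and 2. Every later array was below every earlier one, and the replicate 2 array was the lower at each time. The change was -2.46 (SE 0.41, adjusted p = 0.00541), a 5.50-fold fall beside -0.26 in control arrays at 4.65 to 5.10, and yet Mx2 remained 9.15-fold above control late (adjusted p = 0.000614, and 0.0784 without the control array at 60 h). Rsad2, which encodes the antiviral enzyme viperin, read 8.04 and 7.40 at 24 h, 6.94 and 5.25 at 36 h, 5.44 and 4.90 at 60 h and 5.46 and 4.78 at 72 h. The windows overlapped through the low 36 h replicate 2 array, and the late levels lay among control levels of 5.06 and 5.17. Its change was -1.76 (SE 0.32, adjusted p = 0.00813) and its late difference from control 0.03 (SE 0.39).

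Ifi44, an interferon-induced gene, fell in both replicates. Its levels were 8.27 and 8.11 at 24 h, 7.87 and 7.10 at 36 h, 6.83 and 6.70 at 60 h and 6.64 and 6.33 at 72 h, while control arrays read 4.81, 5.17, 5.44 and 5.40 in the same order of times. The cytokine windows did not overlap, and the control change was 0.43. The change of -1.21 (SE 0.15, adjusted p = 0.000467) left 42.4% of the earlier excess. Among the other members, Samd9l (-2.34), Mx1 (-2.31), Herc6, a ligase for the ubiquitin-like ISG15 in mice (-1.72), Ifit1, which binds foreign RNA (-1.62), and Oas1a, an RNA-sensing synthetase (-1.51), also fell. Outside this list Rtp4, an interferon-induced transporting protein (-1.41, SE 0.19, adjusted p = 0.000744), and Samd9 (-1.46) fell as well. The difference of Rtp4 from the control change was -1.46 (adjusted p = 0.235, and 0.0484 with the block). Mx1, Ifit1 and Oas1a were not called above control late (differences of 0.43, 0.43 and 0.92). Of 28 members raised at 6 to 12 h, 12 were still above control in the later window (1.26% of all genes were). The median retained share was 53.1%, over the 23 members with an earlier excess of at least 1. Leaving out 36 h replicate 1 ended the call of Mx2 (adjusted p = 0.0608 at most), as did 60 h replicate 2, and Rsad2, Mx1, Ifit1 and Oas1a lost theirs without 24 h replicate 1, 36 h replicate 1, 60 h replicate 2 or 72 h replicate 2 (at most 0.0744, 0.119, 0.242 and 0.141). Samd9l lost its call without 24 h replicate 1, 36 h replicate 1 or 72 h replicate 2 (at most 0.0649), and Samd9 without these or 60 h replicate 2 (at most 0.119). Mx, Oas and Ifit transcripts resemble each other and may share probes.

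Interferon-inducible GTPases started from the highest differences and kept much of them. Of 7 measured, 3 fell (Gbp2, Gbp4 and Gbp5, where 0.639% of all genes fell) and with the block all 7, with a median change of -0.75 beside 0.00 in control arrays. Gbp5, a guanylate-binding protein that helps assemble inflammasomes, read 9.93 and 9.36 at 24 h, 9.23 and 7.73 at 36 h, 8.23 and 6.61 at 60 h and 7.69 and 6.10 at 72 h. Replicate 1 was the higher at each time, and the windows overlapped only through the 36 h replicate 2 array. It fell by 1.91 (SE 0.34, adjusted p = 0.00813; without 24 h replicate 1, 36 h replicate 1, 60 h replicate 2 or 72 h replicate 2 at most 0.0837) from 22.9-fold to 6.12-fold over control. Gbp2 fell by 1.39 (SE 0.29, adjusted p = 0.0234) and kept a late difference of 2.64, while Gbp4 fell by 0.57 to a late difference of 0.09 (adjusted p = 0.91). In all, 5 of 7 remained above control late (1.26% of all genes were). Both Gbp2 and Gbp4 lost their call without the same 4 arrays, and Gbp4 also without 24 h replicate 2 or 36 h replicate 2, at most at 0.202 and 0.209.

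Chemokines followed different courses. Of 39 measured chemokines and cytokines 4 fell (0.639% of all genes did), all CXC chemokines, and 0 rose, with a median change of -0.14 beside -0.08 in control arrays. Cxcl1, a neutrophil attractant and NF-κB target, read 10.05 and 10.11 at 24 h and then 8.42 and 8.16 at 36 h, 8.05 and 7.83 at 60 h and 7.95 and 8.05 at 72 h, with control arrays at 6.45, 6.84, 6.79 and 7.19. The 24 h pair stood apart above the other 6 arrays, and the windows did not overlap. The change was -1.22 (SE 0.15, adjusted p = 0.000467), and -0.32 (adjusted p = 0.779) without both 24 h arrays. Cxcl9, a T cell attractant induced by IFN-γ, read 6.27 and 6.09 at 24 h, 5.41 and 4.66 at 36 h, 4.48 and 4.25 at 60 h and 4.26 and 4.54 at 72 h. It fell by 1.23 (SE 0.17, adjusted p = 0.00143) to control levels of 3.89 to 4.36, with a late difference of 0.27 and a retained share of 18.8%.

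Cxcl11, a ligand of the same receptor, fell by 1.38 (SE 0.20, adjusted p = 0.00164) and stayed 4.12-fold above control. Its levels were 9.49 and 9.30 at 24 h, 8.61 and 7.89 at 36 h, 7.79 and 7.20 at 60 h and 7.58 and 7.20 at 72 h. Cxcl10, the other ligand of that receptor, read 10.31 and 10.21 at 24 h, 9.55 and 9.16 at 36 h, 9.28 and 9.23 at 60 h and 8.96 and 9.19 at 72 h. It fell by 0.65 (SE 0.14, adjusted p = 0.0257; at most 0.211 when a 24 h array, 36 h replicate 1, 60 h replicate 2 or 72 h replicate 2 was left out), and its windows overlapped. It remained 7.80-fold above control, 88.7% of the earlier excess. Cxcl16, a membrane-bound chemokine, showed no called change, with 10.24 and 9.98 at 24 h and 10.04 and 10.06 at 72 h, and a late difference of 1.64 (adjusted p = 7.14e-06). Tnf, the inflammatory cytokine, was at 6.61 to 7.34 early and 6.67 to 6.84 late, with a late difference of 1.40. The monocyte attractant Ccl2 had been raised by 1.89 at 6 to 12 h, yet its difference was 0.06 in the earlier window already. Of 15 raised members 10 were above control late (1.26% of all genes were).

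**Figure D4:**
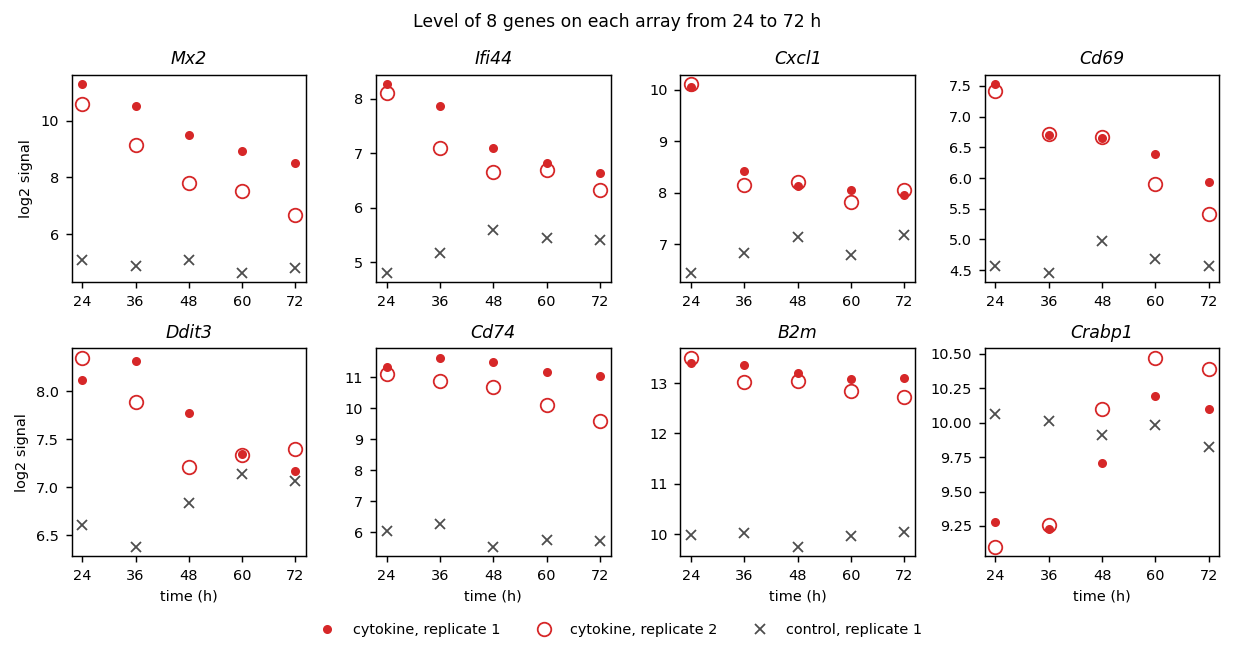
Log2 level of 8 genes on every array from 24 to 72 h: cytokine replicate 1 (filled red), cytokine replicate 2 (open red) and control (grey crosses). Mx2, Ifi44, Cxcl1, Cd69 and Ddit3 decline, Cd74 and B2m stay far above control, and Crabp1 starts below control and ends at 10.10 to 10.47.

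MHC class I antigen processing kept most of its difference from control. Of 22 measured genes of MHC class I processing 2 fell (0.639% of all genes did), the peptide-loading factors Tapbp (-0.61, SE 0.13, adjusted p = 0.0204) and Tapbpl (-0.74, SE 0.17, adjusted p = 0.0349), and 0 rose. The median change was -0.53 beside 0.00 in control arrays, and with the block 6 fell. All 17 members raised at 6 to 12 h were lower in both replicates, but 16 of them were still above control late (1.26% of all genes were), 15 at least 2-fold (0.555%), with a median retained share of 78.9%. B2m, the light chain of class I molecules, read 13.40 and 13.50 at 24 h, 13.36 and 13.02 at 36 h, 13.08 and 12.84 at 60 h and 13.10 and 12.73 at 72 h. Its windows overlapped, its change of -0.38 (SE 0.15) had an adjusted p of 0.256, and it remained 7.61-fold above control levels of 9.97 and 10.05 (adjusted p = 2.3e-09). The calls of Tapbp and Tapbpl were lost without 24 h replicate 1, 36 h replicate 1, 60 h replicate 2 or 72 h replicate 2, at most at 0.187 and 0.242, and that of Tapbpl also without 24 h replicate 2.

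Some class I heavy chains moved by under 0.3 and others by more, and 1 change among those named here was called. Of the 17 raised members of the class I list, 2 moved by under 0.3. RT1-CE5 read 10.12 and 9.81 at 24 h, 10.14 and 9.85 at 36 h, 10.21 and 9.66 at 60 h and 9.96 and 9.36 at 72 h, against 7.56, 7.97, 7.79 and 7.83 in control arrays. All cytokine arrays were above all control arrays at both ends, and the change was -0.18 (SE 0.20, adjusted p = 0.79). RT1-A1 (late difference 1.46), RT1-CE2 (1.18), RT1-T24-1 (1.15) and RT1-O1 (1.04) likewise moved by under 0.3, and RT1-S2 rose by 0.77 (SE 0.15, adjusted p = 0.0141; at most 0.112 without 24 h replicate 1, 36 h replicate 1, 60 h replicate 2 or 72 h replicate 2). RT1-CE7 changed by -0.57 with an adjusted p of 0.0705, and 0.000936 with the block. Named after their values were seen, RT1-S3 (-0.64), RT1-CE10 (-0.59), RT1-M3-1 (-0.59) and RT1-CE1 (-0.44) had larger changes than 0.3 that were not called. The late differences of RT1-CE2 and RT1-CE7 were not called without the control array at 60 h or 72 h (at most 0.299 and 0.0938), nor that of RT1-T24-1 without the first (0.157) and of RT1-O1 without the second (0.944). RT1 genes are near-identical, so the value of a single member is uncertain.

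For MHC class II, 2 of 16 genes fell (0.639% of all genes did), the chains RT1-Db1 (-0.47, SE 0.11, adjusted p = 0.0431) and RT1-Bb (-0.79, SE 0.19, adjusted p = 0.0483), and 0 rose. With the block 4 fell. The 4 members raised at 6 to 12 h had a median change of -1.18 beside -0.24 in control arrays. Of these, 2 were still called above control late (1.26% of all genes were), and the median retained share was 65.5%. Cd74, the invariant chain that guides class II assembly, read 11.32 and 11.12 at 24 h, 11.63 and 10.89 at 36 h, 11.18 and 10.11 at 60 h and 11.03 and 9.60 at 72 h. Replicate 2 was lower at each time with a change of -1.15 against -0.37 for replicate 1, and the pooled change of -0.76 (SE 0.38) was not called (adjusted p = 0.416). The late difference was 4.75, a 26.9-fold excess over control. RT1-Ba changed by -1.15 with an adjusted p of 0.0647, or 0.0271 with the block, and its late difference of 1.33 had 0.0708, or 0.0183 with the block. Ciita, the coactivator that switches on class II genes, had been raised by 0.99 at 6 to 12 h and differed from control by 0.43 early and 0.14 late, neither of them called. Both class II calls were lost without either 24 h array, 36 h replicate 1, 60 h replicate 2 or 72 h replicate 2, at most at 0.311 and 0.345.

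Few signal relays of the interferon pathway passed the test. Of 17 receptors and relays 1 fell (0.639% of all genes did), Stat2, a transcription factor that acts with IRF9, and 0 rose. The median change was -0.20 beside -0.02 in control arrays, and with the block 3 fell. Stat2 read 9.04 and 8.75 at 24 h, 8.56 and 8.05 at 36 h, 8.20 and 7.71 at 60 h and 8.06 and 7.36 at 72 h. Its change was -0.77 (SE 0.17, adjusted p = 0.0339; at most 0.242 without either 24 h array, 36 h replicate 1, 60 h replicate 2 or 72 h replicate 2), with a slight overlap of windows, and 42.8% of its excess was retained. Irf1, the factor that carries much of the IFN-γ response, read 9.92 and 9.42 at 24 h, 9.77 and 9.18 at 36 h, 9.40 and 8.79 at 60 h and 9.39 and 8.45 at 72 h. Its change of -0.57 had an adjusted p of 0.306, and 0.0117 with the replicate block, which takes out the constant offset between replicates 1 and 2. It remained 5.31-fold above control. The STAT interactor Nmi changed by -0.64 (adjusted p = 0.0647, 0.0238 with the block), with a late difference of 0.66 (0.134, 0.0335 with the block), and the kinase Jak2 by -0.38 (adjusted p = 0.258).

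Among 24 brakes, Usp18, a protease that removes ISG15 and blocks the type I interferon receptor, fell by 1.56 (SE 0.35, adjusted p = 0.0339), and the ERK phosphatase Dusp6 rose by 1.13 (SE 0.25, adjusted p = 0.0291) beside 0.56 in control arrays; with the block 3 fell and 1 rose. Both calls were lost without 24 h replicate 1, 36 h replicate 1, 60 h replicate 2 or 72 h replicate 2, at most at 0.253 and 0.214, and that of Dusp6 also without 24 h replicate 2. Socs1 and Socs3, inhibitors of JAK kinases, did not differ from control in either window by the test (late differences of -0.15 and -0.11). Among 31 NF-κB subunits and targets, the apoptosis inhibitor Birc3 (-0.71), the adhesion molecule Icam1 (-0.50) and the mitochondrial superoxide dismutase Sod2 (-0.55) fell and 0 rose. With the block 5 fell. Birc3 kept a late difference from control of 1.47 (adjusted p = 7.99e-06), which was called whichever array was left out. That of Icam1 was 0.46 (adjusted p = 0.0352), a call lost in 4 of those fits, and that of Sod2 was 0.30. Nfkbia, the gene of IκBα, changed by -0.31 (SE 0.08, adjusted p = 0.0761, 0.0344 with the block) and kept 90.0% of its excess, at a late difference of 1.35. Birc3, Icam1 and Sod2 lost their calls without 24 h replicate 1, 36 h replicate 1, 60 h replicate 2 or 72 h replicate 2, at most at 0.10, 0.0916 and 0.257.

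Cd69, an early activation antigen of lymphocytes that was also induced in these cells, fell in both replicates, though its levels at 36 and 48 h were alike. It read 7.53 and 7.41 at 24 h, 6.70 and 6.72 at 36 h, 6.65 and 6.67 at 48 h, 6.39 and 5.90 at 60 h and 5.93 and 5.42 at 72 h, against 4.46 to 4.98 in control arrays. The windows did not overlap, and the change was -1.18 (SE 0.13, adjusted p = 6.88e-05), with 49.8% of the excess retained. Of 20 genes of adhesion and T cell interaction 2 fell (0.639% of all genes did), Icam1 and the galectin Lgals9 (-0.99, SE 0.23, adjusted p = 0.0352; at most 0.249 without 24 h replicate 1, 36 h replicate 1, 60 h replicate 2 or 72 h replicate 2). Lgals9 kept a late difference of 1.65 (adjusted p = 0.0013, and 0.0836 without the control array at 72 h). Cd274, the checkpoint ligand PD-L1, changed by -0.54 (adjusted p = 0.262, 0.0356 with the block), and its difference from control went from 1.18 to 0.33.

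Of 37 cell death regulators 3 fell (0.639% of all genes did) and 0 rose. Casp4, an inflammatory caspase, read 6.81 and 6.46 at 24 h, 7.43 and 5.80 at 36 h, 5.55 and 4.18 at 60 h and 5.09 and 4.33 at 72 h, with control arrays at 3.5 to 4.00. Every late array was below every early one, and the change was -1.84 (SE 0.32, adjusted p = 0.00714). Its late difference was 1.19 (adjusted p = 0.165), or 1.44 with the block (0.0106). Fas, a death receptor, read 7.37 and 7.17 at 24 h, 7.03 and 6.82 at 36 h, 6.48 and 6.04 at 60 h and 6.5 and 5.79 at 72 h. It fell by 0.90 (SE 0.15, adjusted p = 0.00606) without overlap, and its late difference from control was 0.40 (adjusted p = 0.422). Birc3, the third, is given above. Casp4 lost its call without 24 h replicate 1, 36 h replicate 1, 60 h replicate 2 or 72 h replicate 2 (at most 0.0722), and Fas without the last 3 of these (at most 0.0673).

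Among 22 complement and serpin genes 2 fell and 1 rose. C1s, a protease of the classical complement pathway, fell by 1.46 (SE 0.29, adjusted p = 0.0166) to a late difference of 1.33 (adjusted p = 0.0644, 0.00554 with the block), and its inhibitor Serping1 by 0.70 (SE 0.15, adjusted p = 0.0274) while staying at a late difference of 3.04. Serpina1, the gene of alpha-1 antitrypsin, rose. It read 6.45 and 7.40 at 24 h, 7.60 and 8.40 at 36 h, 7.84 and 9.71 at 60 h and 8.78 and 10.67 at 72 h, with replicate 2 higher at each time and the windows overlapping. Its control levels were 5.55, 6.09, 6.51 and 6.79, which is a change of 0.83 beside 1.79 (SE 0.35, adjusted p = 0.0146) in cytokine arrays. The late difference was 2.6, or 6.08-fold (adjusted p = 0.00125, and 0.153 without the control array at 72 h). All 3 calls were lost without 24 h replicate 1, 36 h replicate 1, 60 h replicate 2 or 72 h replicate 2, at most at 0.165, 0.221 and 0.139.

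Nos2, the inducible nitric oxide synthase, had lower late levels in both arms. It read 9.51 and 8.44 at 24 h, 8.36 and 7.10 at 36 h, 7.76 and 6.86 at 60 h and 7.49 and 6.82 at 72 h, and in control arrays 6.49, 6.29, 5.05 and 5.25. The late arrays were the lower ones in both arms apart from the 36 h replicate 2 cytokine array, with changes of -1.12 (SE 0.32, adjusted p = 0.0918, 0.0357 with the block) and -1.24. The difference from control was therefore 1.96 early and 2.08 late (adjusted p = 0.00364; 0.151 at most without the control array at 60 h or 72 h). Ass1, which recycles citrulline to arginine for nitric oxide synthesis, changed by -0.54 (adjusted p = 0.101, 0.0434 with the block) beside -0.36, and differed from control by 0.85 late, a call that was lost without either late control array or either late replicate 1 cytokine array (0.471 at most). Of 21 genes of nitric oxide and arginine handling 0 were called, and with the block 1 rose and 2 fell.

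Stress response genes were no longer called above control late. Of 36 targets of ATF4 and CHOP, transcription factors of the integrated stress response, 3 fell (0.639% of all genes did) and 0 rose (1 with the block). The number above control went from 7 to 0 (2.91% and 1.26% of all genes were). Ddit3 read 8.12 and 8.35 at 24 h, 8.32 and 7.89 at 36 h, 7.35 and 7.34 at 60 h and 7.17 and 7.40 at 72 h, while control arrays read 6.61 and 6.38 early and 7.14 and 7.07 late. The windows did not overlap, the change was -0.86 (SE 0.14, adjusted p = 0.00543), and the late difference was 0.21, 12.6% of the earlier one. Trib3, a pseudokinase induced by CHOP, read 6.77 and 6.89 at 24 h, 7.38 and 6.16 at 36 h, 5.75 and 5.63 at 60 h and 5.38 and 5.50 at 72 h. It fell by 1.23 (SE 0.19, adjusted p = 0.00288), and the amino acid transporter subunit Slc3a2 by 0.36 (SE 0.08, adjusted p = 0.038). Ddit3 lost its call without 36 h replicate 1 (0.0608), and Slc3a2 without any 1 of 7 cytokine arrays, 36 h replicate 2 being the exception (at most 0.294).

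Aminoacyl-tRNA synthetases, which load amino acids for translation and include ATF4 targets, had small negative changes throughout. All 17 had negative changes, with a median of -0.19 beside -0.04 in control arrays, and 1 fell, Eprs1, from 10.25 to 10.46 down to 9.85 to 9.91 (-0.48, SE 0.08, adjusted p = 0.00288). Sars1 (-0.34) and Kars1 (-0.47) had adjusted p of 0.0699 and 0.145, and 0.0384 and 0.0183 with the block, and the late difference of Kars1 was 0.56 (0.156, 0.00408 with the block). Of 33 ER chaperones and degradation factors, in contrast, 0 were called, and 6 were below control in each window (2.27% and 0.663% of all genes were). With the block 1 of them fell and 12 were below control late (237 of all 16587 genes were).

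Cell cycle genes lay closer to control late in their medians. Of 37 mitosis genes 35 had positive changes, with a median of 0.20 beside -0.20 in control arrays, but 1 rose by the test, and 3 with the block. The number below control went from 28 in the earlier window to 0 in the later one (2.27% and 0.663% of all genes were). The median difference went from -0.64 to -0.26, but the difference between the cytokine and the control change was called for 0 of the 37. Anln, which encodes the cleavage furrow protein anillin, read 7.5 and 7.23 at 24 h, 7.43 and 7.42 at 36 h, 7.84 and 7.90 at 60 h and 7.96 and 8.11 at 72 h, against control levels of 8.59, 8.35, 8.38 and 8.18. It rose by 0.56 (SE 0.09, adjusted p = 0.00606; 0.052 without 72 h replicate 2), and the windows did not overlap. Its difference from the control change was 0.74 (adjusted p = 0.235). The mitotic kinase Plk1 (0.30, adjusted p = 0.12) and the condensin subunit Ncapd2 (0.36, adjusted p = 0.0979, 0.0329 with the block) had positive changes too.

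For DNA replication, 5 of 38 genes rose (0.627% of all genes did) and 0 fell, with a median of 0.21 beside -0.09 in control arrays. They were the helicase subunit Mcm7 (0.42), the sliding clamp Pcna (0.36), the polymerase Pole (0.40), the helicase factor Gins3 (0.65) and the S-phase transcription factor E2f1 (0.49), where Pcna and Pole are named only to complete the count. The median difference from control went from -0.31 to 0.00, but the difference between the cytokine and the control change was called for 0 of the 38. The number below control went from 9 to 0 (2.27% and 0.663% of all genes were). Mcm7, Gins3 and E2f1 lost their calls without 24 h replicate 2, 36 h replicate 1, 60 h replicate 2 or 72 h replicate 2, Mcm7 also without 36 h replicate 2, and Gins3 and E2f1 also without 24 h replicate 1, at most at 0.108, 0.209 and 0.242. The change of the control arrays in the opposite direction, by 0.20 for mitosis genes, is part of the narrowing of the difference.

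Genes of lipid synthesis had positive changes in both arms. All 19 genes of cholesterol synthesis had positive changes, with a median of 0.36 beside 0.30 in control arrays, and 1 rose, the sterol demethylase Cyp51 (0.69, SE 0.12, adjusted p = 0.00606; at most 0.0722 without 36 h replicate 1, 60 h replicate 2 or 72 h replicate 2); with the block 9 rose. Fads1, a fatty acid desaturase, read 9.61 and 9.86 at 24 h, 9.86 and 10.31 at 36 h, 10.45 and 10.84 at 60 h and 10.63 and 10.86 at 72 h, and in control arrays 9.95, 10.34, 10.97 and 11.11. It rose by 0.78 beside 0.90, with a difference between the arms of -0.11 (adjusted p = 0.967). Scd2, the stearoyl-CoA desaturase, rose by 0.76 beside 0.87, the mucin Muc13 by 0.97 beside 1.09 and the extracellular peroxidase Gpx3 by 0.63 beside 0.61. The late differences from control of Fads1 (-0.34) and Scd2 (-0.26) were not called (adjusted p = 0.526 and 0.706), but with the block they were -0.5 and -0.43 (0.00257 and 0.00722). Fads1, Scd2, Muc13 and Gpx3 each lost the cytokine call without 24 h replicate 1, 36 h replicate 1, 60 h replicate 2 or 72 h replicate 2 (at most 0.135, 0.187, 0.0944 and 0.107).

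Other rising genes had smaller or negative changes in control arrays. Crabp1 read 9.28 and 9.10 at 24 h, 9.23 and 9.26 at 36 h, 10.19 and 10.47 at 60 h and 10.10 and 10.39 at 72 h, with control arrays between 9.82 and 10.06. It was below every control array early and above every one late, a change of 1.07 (SE 0.12, adjusted p = 6.88e-05). S100a5, a calcium-binding protein, read 9.15 and 9.20 at 24 h, 9.58 and 9.61 at 36 h, 10.40 and 10.52 at 60 h and 10.48 and 10.42 at 72 h. It rose by 1.07 (SE 0.11, adjusted p = 6.88e-05) beside 0.36 in control arrays, which read 8.44 to 9.21, and its late difference of 1.35 was 2.55-fold. The difference between the arms was called for Crabp1 and not for S100a5 (adjusted p = 0.339). The sodium-calcium exchanger Slc8a2 (0.78 beside -0.05), the cell cycle kinase subunit Cks1b (0.96 beside -0.50) and the secreted peptide Prok2 (0.94 beside -0.32) rose too. The late difference of Slc8a2 was 0.58 (adjusted p = 0.12), or 0.68 with the block (0.00656). Slc8a2 lost its call without 36 h replicate 1, 60 h replicate 2 or 72 h replicate 2 (at most 0.0722), Cks1b without 6 of the 8 cytokine arrays and Prok2 without 7 (at most 0.275 and 0.305).

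Few genes of beta cell identity and function had a called change between the windows, and those only with the block. Of 27 genes of beta cell identity and function 0 were called, with a median of 0.08 beside 0.20 in control arrays. With the block 2 rose, among them the islet transcription factor Nkx2-2 (0.45, adjusted p = 0.406 without and 0.0427 with it), and 5 rather than 2 were below control late. Over all genes 237 of 16587 were below control late with the block, and 0.663% without it. Ins2, an insulin gene, read 12.85 and 12.94 at 24 h, 12.66 and 12.65 at 36 h, 12.64 and 12.86 at 60 h and 12.59 and 12.87 at 72 h, and in control arrays 13.23, 13.36, 13.53 and 13.56. Every cytokine array was below every control array, and the difference was -0.51 early and -0.80 late (adjusted p = 0.00392 and 6.42e-05), with a change of -0.04. Ins1, the other insulin gene, had a late difference of -0.30 (adjusted p = 0.414), at levels near the top of the scale. The insulin gene activator Mafa (change 0.19, adjusted p = 0.636) and Slc2a2 (0.05, adjusted p = 0.863) showed no called change or difference.

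Among granule genes, the chaperone Scg5 (0.58, SE 0.09, adjusted p = 0.00288) and the neuropeptide precursor Vgf (0.55, SE 0.09, adjusted p = 0.00416) rose, the latter beside 0.41 in control arrays, and with the block 5 rose. The granule priming factor Cadps2 fell (-0.45, SE 0.11, adjusted p = 0.0481; at most 0.282, lost without any cytokine array but 72 h replicate 1). Gcg, the glucagon precursor, which this line also transcribes, read 6.98 and 6.96 at 24 h, 6.31 and 6.77 at 36 h, 6.48 and 6.39 at 60 h and 5.54 and 6.01 at 72 h, against 9.30, 9.52, 9.21 and 8.94 in control arrays. Its change of -0.65 had an adjusted p of 0.079, and 0.0151 with the block. The late difference of -2.97 (adjusted p = 2.67e-08) was the largest reduction among the named genes. Car8, a carbonic anhydrase-related protein, was the persisting gene among those lowered at 6 to 12 h, with 6.07 and 6.93 at 24 h, 6.12 and 7.0 at 36 h, 6.23 and 7.0 at 60 h and 6.5 and 6.39 at 72 h against 8.57 to 8.68 in control arrays. Its difference was -2.13 early and -2.08 late.

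**Figure D5:**
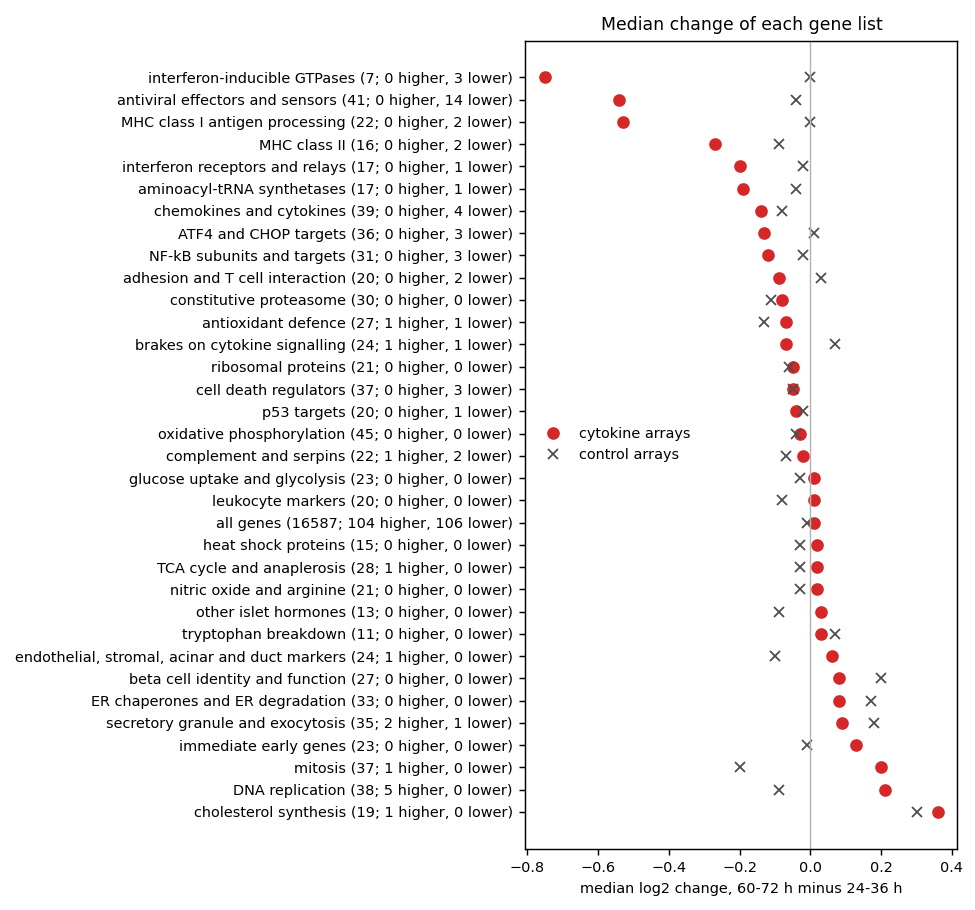
Median log2 change from 24 and 36 h to 60 and 72 h of each gene list in cytokine arrays (red points) and control arrays (grey crosses), with the number of genes measured and the numbers called higher and lower in cytokine arrays in brackets. Interferon-inducible GTPases lie lowest at -0.75 and cholesterol synthesis highest at 0.36, where control arrays lie at 0.30.

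Genes raised at 6 to 12 h that moved by under 0.3 and kept the largest differences were, beside the class I chains, Cxcl16 and Tnf, the membrane protein Ifitm1, the semaphorin and VEGF coreceptor Nrp1 and the secreted glycoprotein Lgals3bp. Ifitm1, which restricts virus entry, read 8.81 and 8.14 at 24 h, 7.67 and 7.57 at 36 h, 8.01 and 8.15 at 60 h and 7.96 and 8.97 at 72 h, against control levels of 6.28, 6.47, 5.60 and 6.19. It dipped at 36 h and did not fall further, and its late difference was 2.38 (SE 0.23, adjusted p = 1.51e-06). Nrp1 was at 8.44 to 8.65 early and 8.62 to 8.90 late, with a late difference of 1.23, and Lgals3bp kept 76.5% of its excess at a late difference of 1.17. These late differences, and those of B2m, Cd74, Cxcl10, Irf1, Nfkbia, RT1-A1 and RT1-CE5, were called whichever array was left out. The late differences of Mx2, Gbp5, Ifi44 and Rtp4 were not called without the control array at 60 h (adjusted p of 0.0784, 0.0791, 0.0605 and 0.0596), nor that of Cxcl1 without the control array at 60 h or 72 h (0.262 at most).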

How the data were processed

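Expression was measured on Affymetrix Rat ST arrays with biotin-labelled total RNA, per the labels. The deposited table holds log2 signals, 1 per probe set and array; the log2 scale was inferred from the range of 2.27 to 14.46, and no source used here gives how the authors corrected, summarised and normalized the signals. Precision is limited by the number of arrays. The platform annotation gave 1 gene symbol to 16592 of 19239 probe sets, several to 0 and none to 2647. Of their gene numbers 16453 matched a RefSeq table of the rat assembly GRCr8, through which 3326 symbols were updated. Where several probe sets shared a symbol (5 symbols), the brightest was kept, which left 16587. No dim probe set was left out.

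Tests used limma 3.58.1 in R 4.3.3 (lmFit, eBayes; statmod 1.5.0 for weights and robust moderation) with 1 coefficient per treatment and time over all 40 arrays (26 coefficients, 14 residual and 6.05 prior degrees of freedom), so that a lone control array was assumed to vary like groups of 2. Each contrast averages its times equally. On simulated data for the cytokine change over 16587 genes, 59% of log2 changes of 0.5 and 96% of those of 1 were called. Of the simulated calls 4.91% were false. The simulated noise was independent between arrays and lacked the shared deviations of same-numbered replicates described below. These shares may therefore not hold for the data. A fold of at least 2 is a log2 difference of at least 1.

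Replicate numbers come from the titles. Deviations from group means of same-numbered arrays correlated at 0.206 to 0.41 in all 6 pairs of the 4 cytokine groups compared (over all 91 pairs of groups of 2, -0.172 to 0.432, with 68 over 0.1), so the numbers were taken to pair the arrays and the fit with the number as a block is given where it changes a call. The labels do not tie a number to an occasion.

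The members, gene lists and tests were chosen with earlier results of these data known. Named genes were the 15 largest negative and 12 largest positive called changes with the same sign in both replicates, up to 6 called genes in either direction of the other comparisons, the 10 raised and 5 lowered responders with the largest late difference among those that moved by under 0.3, in each list up to 3 members with the lowest p, and 21 genes always included. Responders were called and at least 2-fold at 6, 8, 10 and 12 h. Some genes are not reported here.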

Additional observations from a re-analysis of the deposited data

Results flagged for a closer look

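In the 4 cytokine arrays of a window, 13 of 276 sets of values of the 138 named genes had 1 array far from the other 3 by Dixon's test, and chance flags about 1 in 20 groups. In the earlier window the array that stood low was 36 h replicate 2 for Ins1 (13.49), Gadd45a (9.18) and Samd9 (8.42), 24 h replicate 1 for Gpx3 (7.03), 24 h replicate 2 for Ldhb (6.89) and 36 h replicate 1 for Nr4a3 (5.57). There the array that stood high was 36 h replicate 2 for Gins3 (7.38) and 24 h replicate 1 for Cd3g (3.32) and Lyz2 (4.92). In the later window 60 h replicate 2 stood high for Ctrb1 (8.31) and Plk1 (9.58) and 72 h replicate 2 for Pdhb (9.96), while 72 h replicate 2 stood low for Pkm (7.07).

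The cytokine and control arms changed differently in the test of the difference for Cxcl1 (-1.57), Ifi44 (-1.64), Ddit3 (-1.47), Cd69 (-1.29) and Crabp1 (1.20).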

How the results depend on the processing

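Among the named genes, no cytokine change called in the fit used above or in an alternative changed its direction between these fits. Changes called in neither were not checked for this. That of Ifitm1, for example, was 0.22 over both replicates and -0.25 in replicate 1 arrays. Counts stayed within 1.5 times of their values under quantile normalization, arrays centred on the median, genes of the lowest mean levels left out, the mean of probe sets, trend and robust moderation and array weights. With the replicate block, 278 genes rose and 225 fell in cytokine cultures, 16 were called in control cultures and 12 in the difference, 332 were above and 237 below control late, and 94 raised genes fell. With only the 12 arrays of the windows, 65 genes fell, 2 were called in the difference and 21 raised genes fell. With replicate 1 arrays only, 1 gene rose, 2 fell, 0 were called in the difference and 2 raised genes fell. Without the 24 h arrays 2 genes rose, 1 fell, 0 were called in the difference and 0 raised genes fell, and without the 36 h arrays 53 rose and 1 was called in control cultures. Without the 60 h arrays 42 rose, 60 fell, 0 were called in the difference, 91 were above and 39 below control late, 28 raised genes fell and 62 were above control late. Without the 72 h arrays these numbers were 3, 8, 0, 89, 17, 7 and 65. With genes raised at 48 h in place of 6 to 12 h, 18 fell and 73 were above control late. Leaving out 1 array at a time gave 7 to 240 genes higher and 14 to 244 lower in cytokine cultures, 0 to 1 in control cultures and 0 to 5 in the difference, 77 to 224 above and 15 to 121 below control late, and 8 to 92 raised genes that fell and 57 to 121 that were above control late. Beyond Nqo1 and the genes whose blocked values stand beside their results, the block changed the cytokine call of the named genes Agmat, Gast, Insig1, Muc1, Mvd and Selenos and the late difference call of Gadd45a (adjusted p = 0.00963) and Thy1 (0.00486), each of which gained one; no other call of a named gene changed in the cytokine change, the difference between the arms or the late difference. The fits with fewer arrays have less power by construction; the cause of the other shifts was not tested. Dim probe sets limit what can be said of low levels, since the table holds no detection calls.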

Other observations

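Few genes of energy metabolism and protein turnover were called between the windows. Of 45 subunits of oxidative phosphorylation 0 were called, with a median change of -0.03 beside -0.04 in control arrays, and the same was so for 30 subunits of the constitutive proteasome (-0.08 beside -0.11), 21 ribosomal proteins (-0.05 beside -0.06), 15 heat shock proteins (0.02 beside -0.03), 23 genes of glucose uptake and glycolysis (0.01 beside -0.03) and 23 immediate early genes (0.13 beside -0.01). Of 28 genes of the TCA cycle and anaplerosis 1 rose, the pyruvate dehydrogenase subunit Pdhb (0.44, SE 0.09, limma adjusted p = 0.0234). Its call was lost without either 24 h array, 36 h replicate 1, 60 h replicate 2 or 72 h replicate 2 (at most 0.155). The number of these 28 genes below control went from 5 to 1 (2.27% and 0.663% of all genes were). Among glycolysis genes the pyruvate kinase Pkm changed by 0.65 in cytokine arrays (adjusted p = 0.097) and by -0.81 in control arrays, a difference of 1.46 (adjusted p = 0.235), and Pfkfb3, which makes the activator of phosphofructokinase, changed by 0.62 (adjusted p = 0.422).

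Among 27 antioxidant genes Gpx3 rose and Sod2 fell, and with the replicate block 2 fell. Nqo1, a quinone reductase induced by oxidative stress, read 7.11 in the mean of the control arrays early and 5.71 late, a change of -1.40, beside -0.97 in cytokine arrays (adjusted p = 0.108, 0.00662 with the replicate block). Of 11 genes of tryptophan breakdown 0 were called, and Aadat, a kynurenine aminotransferase, had a late difference from control of -1.72 (adjusted p = 0.0201; at most 0.372 without a control array at 60 h or 72 h or a replicate 1 cytokine array at those times). Wars1, the tryptophan tRNA synthetase and an IFN-γ target, kept a late difference of 0.60 (adjusted p = 0.0081; 0.186 at most without a control array at 60 h or 72 h). Of 20 p53 targets 1 fell, Fas, and of 13 other islet hormones 0 were called (with the block 1 rose and 1 fell).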
